A study of Drosophila melanogaster with 2 samples.

Results

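The heat shock protein genes described here are Hsp22, Hsp23, Hsp26, Hsp27, Hsp67Bc, Hsp68, Hsp83, Hsf, DnaJ-1 and stv, 10 of the 13945 protein-coding genes on the chromosome arms. They were listed by name, with earlier results of these data known, and all 10 were found in the gene models. Binding of the transcription factor Jra was measured by ChIP-seq in Drosophila melanogaster that stably carried Jra fused at its C-terminal end to GFP, and chromatin was precipitated through the GFP tag. The animals were intact larvae of both sexes, pooled at the wandering stage of the last instar, so every value is a mixture of tissues. Both biological replicates, labelled 1 and 3, belong to a single group, with no heat treatment in the labels and no second condition. No test between conditions was therefore possible, and nothing in the labels says from how many animals or cultures each replicate came.

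Heat shock proteins are chaperones that hold or refold damaged proteins. Their genes are switched on by heat shock factor, the product of Hsf, which binds heat shock elements, arrays of GAA units in alternating orientation. The small heat shock protein genes of the fly lie in a cluster, and several of them are also known to be transcribed without heat in late larvae under the hormone ecdysone. Jra, the fly Jun, forms the AP-1 factor with the Fos protein kay and is known for its part in stress signalling through JNK.

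The deposited lists give, for each region, a signal from the authors' peak caller and a summit position. The list thresholded by irreproducible discovery rate (IDR), a measure of agreement in rank between replicates, held 3803 nuclear peaks with signals of 70.58 to 1184. The pooled list held 29970 nuclear regions, and the lists of replicates 1 and 3 held 30000 and 29971. Those long lists include background regions by design. At the genes described here, every region with a pooled signal above 70.58 was on the IDR list and every weaker one was not. Presence on or absence from that list therefore did not by itself tell how well the replicates agreed at a region. Since no read counts are listed, the depth of sequencing is unknown. Signals have a scale of their own in each list, so replicates are compared by rank, with rank 1 the strongest nuclear region of a list. A region was assigned to a gene when its summit lay in the gene or within 3 kb of either end.

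In all, 11 IDR peaks, 0.289% of the nuclear peaks, lay at 8 of the 10 genes. Over all protein-coding genes the share with an IDR peak by the same rule was 34.3%. Hsf and stv were the genes without one. For summits within 1 kb of a transcription start site (TSS), the counts were 7 of 10 heat shock protein genes and 20.4% of all protein-coding genes. Regions of the pooled list lay at all 10 genes, at 3 to 9 regions per gene (median 5), where 67.9% of all protein-coding genes had at least 1 and the median was 2. The heat shock protein genes were of ordinary length, with a median of 2097 bp beside 2166 bp for all protein-coding genes. Neighbouring members share peaks, so the 10 genes are not independent observations and no test was made of these shares. The set was also chosen with earlier results of these data known, so the shares only describe these 10 genes.

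**Figure D1:**
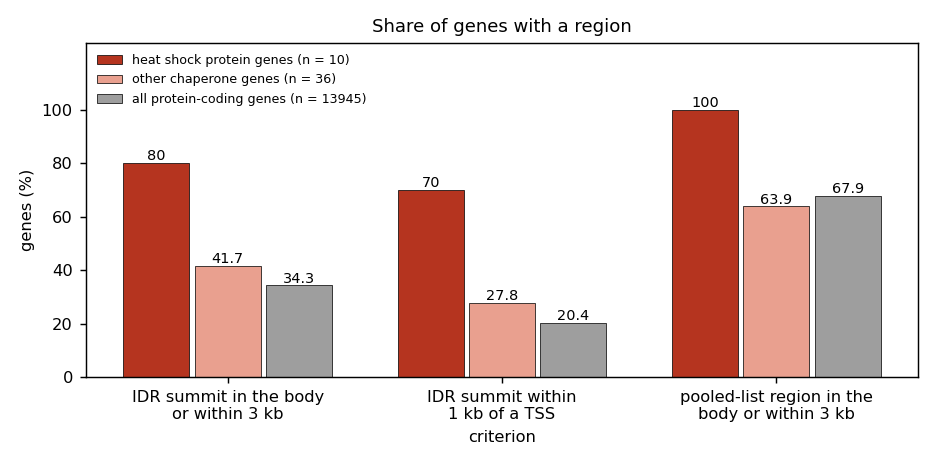
Percentage of genes that meet each criterion (horizontal axis: criterion; vertical axis: genes in %), for the 10 heat shock protein genes, 36 other protein-coding chaperone genes and all 13945 protein-coding genes. The heat shock protein genes stand at 80%, 70% and 100%, the other chaperone genes at 41.7%, 27.8% and 63.9%, and all protein-coding genes at 34.3%, 20.4% and 67.9%. Both short gene lists were chosen with earlier results of these data known.

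The signals of the 11 peaks had a median of 105.5, and all nuclear IDR peaks had a median of 104.1. The strongest was at Hsp27 (383.4, rank 77 of the pooled list), followed by Hsp26 (202.8, rank 466) and the body of Hsp83 (191, rank 535). Of the 11 summits, 9 lay within 250 bp of the nearest protein-coding TSS, beside 46.5% of all nuclear IDR peaks. In 4 of the 11 peaks that nearest TSS belonged to a gene outside the set, namely Fdx1, SMC1, CG14965 or CG14966. The remaining 7 were nearest to a heat shock protein gene, and between them they covered 6 genes: Hsp22, Hsp23, Hsp26, Hsp27, Hsp83 and DnaJ-1. The share of all protein-coding genes covered by this nearest-TSS rule was not computed, so the count of 6 only describes these genes. Closest to the limit of the IDR list were the peak beside CG14965 at 74.18, inside it, and regions at Hsp83 (69.31) and Hsf (68.36 and 67.79), outside it.

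**Figure D2:**
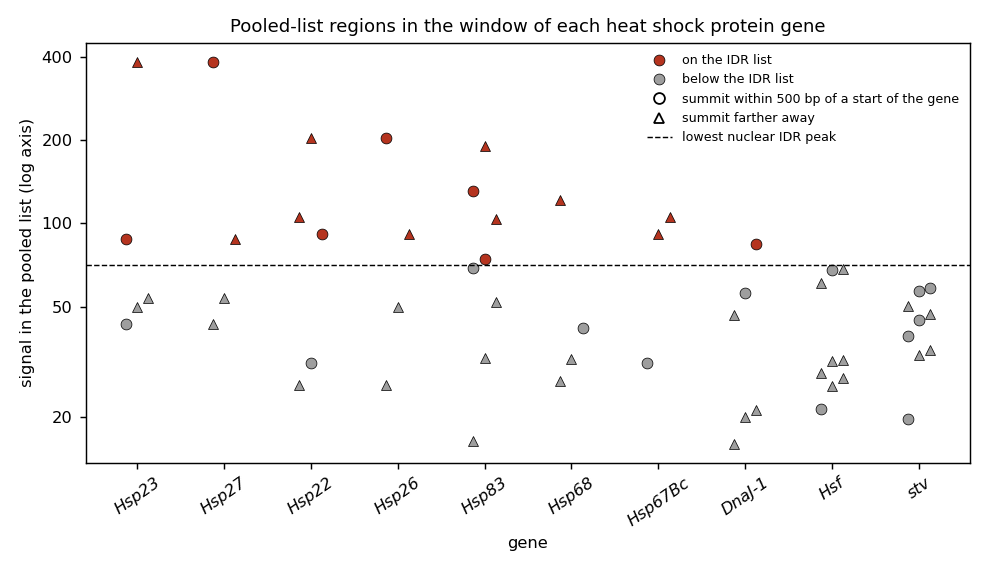
Signal of every pooled-list region (vertical axis, log scale) in the window of each gene (horizontal axis), red where the region is on the IDR list and grey where it is below it. Circles mark summits within 500 bp of a TSS of that gene, triangles those farther away, and the dashed line the lowest nuclear IDR peak (70.58). Regions shared by neighbouring genes appear once per gene, and all regions of Hsf and stv lie under the line.

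The small heat shock protein genes Hsp22, Hsp23, Hsp26, Hsp27 and Hsp67Bc lie within 14184 bp on chromosome arm 3L (chr3L:9371511-9385694 of build dm6), together with Hsp67Ba, CG4456 (also called Hsp67Bb) and CG4461. With 3 kb on each side this stretch held 5 IDR peaks and 10 pooled-list regions. That is 2.48 IDR peaks per 10 kb, where the chromosome arms as a whole held 0.285. For pooled-list regions the densities were 4.95 per 10 kb in the cluster and 2.24 on the arms. Over the windows of all 10 genes together, the densities were 1.59 IDR peaks and 6.67 pooled-list regions per 10 kb. The cluster thus stood above those windows in IDR peaks and below them in pooled-list regions. Neighbouring summits of the 5 peaks stood 2189 to 4144 bp apart, so the regions do not touch. The peaks fell at the promoters of Hsp27, Hsp26 and Hsp23, upstream of the inner start of Hsp22, and at Fdx1, the gene next to Hsp67Bc.

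**Figure D3:**
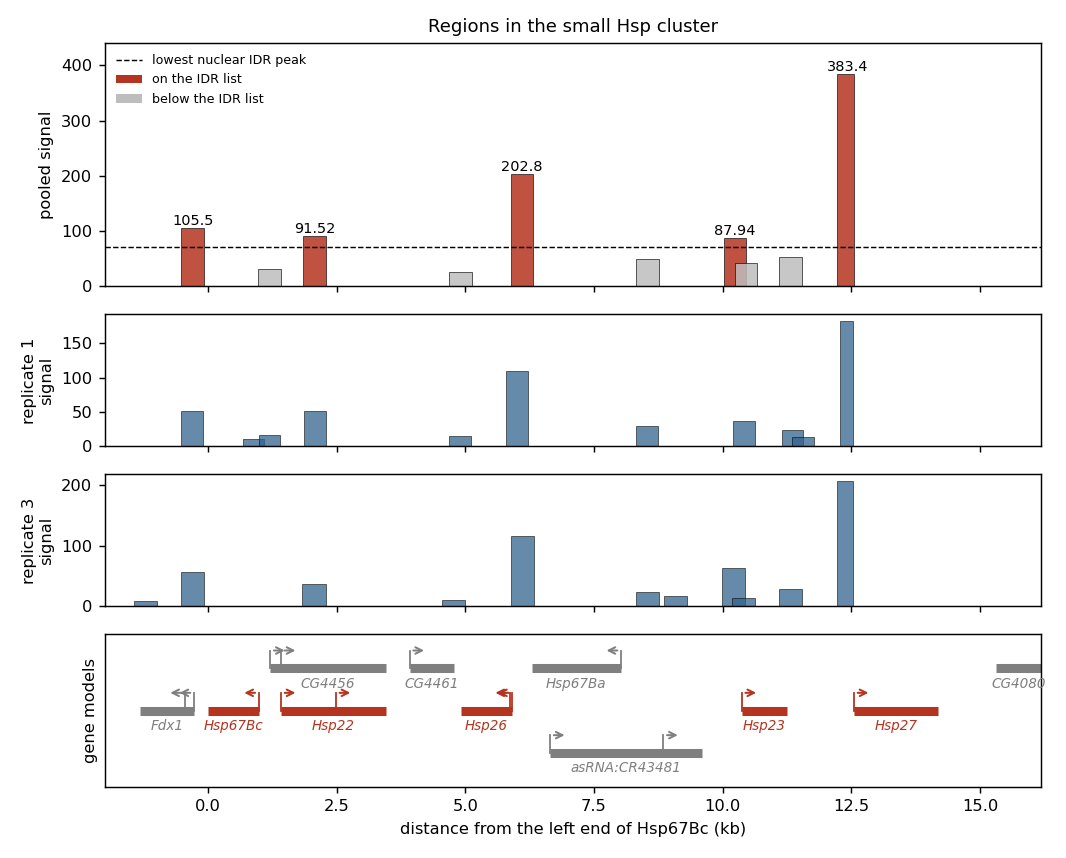
Map of the small Hsp cluster, with distance from the left end of Hsp67Bc in kb on the horizontal axis. The upper panels give the signal of each region in the pooled list, in replicate 1 and in replicate 3, each on its own vertical scale; bar width is the width of the region. The lowest panel shows gene models, with arrows at annotated starts and the described genes in red. The bars at Hsp27 and Hsp26 are the tallest and next tallest in all 3 lists.

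The sequences under the 3 promoter summits of the cluster are shown so that the words near each summit can be compared. They do not cover the whole peaks. Each run of 201 bases is centred on the pooled summit and reads 5′ to 3′ on the strand of the gene, from the RefSeq sequence of assembly Release 6 (dm6). Capitals mark matches on either strand to the paired heat shock unit GAANNTTC or TTCNNGAA, the repeat GAGAG, the TATA word TATAAA, the AP-1 site TGACTCA or TGAGTCA, and TATCGATA, the DNA replication-related element (DRE), where N is any base. The Hsp27 stretch is chr3L:9383842-9384042 on the plus strand and ends 21 bp before the TSS. The Hsp26 stretch is chr3L:9377509-9377709 on the minus strand, and the Hsp23 stretch is chr3L:9381653-9381853 on the plus strand.
Hsp27 promoter: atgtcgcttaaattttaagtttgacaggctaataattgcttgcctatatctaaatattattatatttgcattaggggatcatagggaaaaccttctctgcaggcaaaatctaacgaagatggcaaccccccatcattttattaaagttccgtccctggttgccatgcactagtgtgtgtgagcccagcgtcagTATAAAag
Hsp26 promoter: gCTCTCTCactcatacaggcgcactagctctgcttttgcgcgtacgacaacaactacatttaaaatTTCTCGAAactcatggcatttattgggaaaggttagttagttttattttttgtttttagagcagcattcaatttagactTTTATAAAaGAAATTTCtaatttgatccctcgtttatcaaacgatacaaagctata
Hsp23 promoter: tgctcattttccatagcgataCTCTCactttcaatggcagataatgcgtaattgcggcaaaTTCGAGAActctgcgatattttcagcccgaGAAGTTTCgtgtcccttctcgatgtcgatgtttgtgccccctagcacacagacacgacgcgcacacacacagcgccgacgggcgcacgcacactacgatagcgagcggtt

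Hsp27 encodes a small chaperone known to occur in the nucleus. Its peak, 340 bp wide, had its summit in intergenic sequence 121 bp upstream of the only annotated TSS. The overlapping region ranked 126 in replicate 1 (signal 182.6) and 45 in replicate 3 (signal 206.9). It was the highest-ranked region of the heat shock protein genes in each replicate taken alone. The Hsp27 peak held a TATA word 96 bp downstream of the summit and 3 GAGAG words. It held no paired heat shock unit with these letters.

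Hsp26 encodes a small chaperone of the cytosol. Its peak had a summit 182 bp upstream of the TSS, in the gap between Hsp26 and the end of Hsp67Ba, and it overlapped regions of rank 570 in replicate 1 (signal 109.1) and 240 in replicate 3 (signal 116.1). The replicate 1 summit was displaced by 96 bp towards Hsp26, while that of replicate 3 lay within 5 bp of the pooled one. The region held 5 paired heat shock units, the most of any of the 11 peaks, and 9 overlapping or separate GAGAG words. GAGA factor, which binds such repeats, is known from work on the Hsp26 promoter. The paired units nearest to the summit were centred 31 bp to one side and 57 bp to the other. Those centred 106, 132 and 188 bp from the summit lie outside the printed sequence.

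Hsp23 encodes another cytosolic small chaperone. Its peak had a signal of 87.94 and a summit 129 bp upstream of the TSS, and a paired heat shock unit was centred 5 bp from that summit. The replicates differed here, with rank 4384 in replicate 1 (signal 37.66) and rank 1193 in replicate 3 (signal 62.95). In replicate 1 the overlapping summit lay 173 bp to the right, inside the start of the gene. Weaker regions of the pooled list followed 79 bp inside Hsp23 (43.25) and 948 bp from its TSS, past its end (53.73).

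Hsp22 encodes a small chaperone of mitochondria and has 2 annotated starts. Its peak (91.52) had a summit 411 bp upstream of the inner start, at a point annotated as 5′ UTR of the longer Hsp22 transcript and as 3′ UTR of CG4456. It ranked 2534 in replicate 1 (signal 52.05) and 3429 in replicate 3 (signal 37.67). The peak held 9 GAGAG words, some overlapping, and no paired heat shock unit. A stretch of 30 bases that holds the words nearest to the summit is shown, chr3L:9373648-9373677 on the plus strand.
Hsp22 upstream site: ccacaaaactttCTCTCTCccaCTCTCtaa

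Hsp67Bc, known as a partner of the co-chaperone stv, has no IDR peak at its own start. It faces CG4456 with 225 bp between the starts, and this shared promoter held only a pooled-list region of signal 31.22 (rank 12442). The outer start of Hsp22 lies 434 bp from the Hsp67Bc start, and the same region, 226 bp away, was the nearest to it. That region overlapped a replicate 1 region of rank 14773 and none in replicate 3. The IDR peaks counted for Hsp67Bc lie at Fdx1 (105.5, 22 bp inside the Fdx1 start) and at Hsp22 (91.52). Fdx1 encodes a ferredoxin, and its peak ranked 2585 in replicate 1 and 1529 in replicate 3. The Fdx1 peak held a DRE centred 55 bp from the summit, shown here within 30 bases of the Fdx1 strand, chr3L:9371256-9371285.
Fdx1 site: ataagtgtaatTATCGATAgcttttagtca

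Hsp83 (chr3L:3192969-3197059, plus strand) encodes the fly Hsp90, a chaperone of kinases and hormone receptors that is abundant without heat. It had 4 IDR peaks, the most of the 10 genes, and 8 pooled-list regions in all. From left to right the IDR peaks had signals of 74.18, 130.9, 191 and 103.6. The first lay 26 bp upstream of CG14965, which faces Hsp83 with 478 bp between the starts, and the last lay 124 bp upstream of CG14966. The middle pair belonged to Hsp83 itself.

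The Hsp83 promoter peak was narrow, at 186 bp, and its summit lay between the annotated starts, 112 bp upstream of the inner one. It ranked 2066 in replicate 1 (signal 58.31) and 878 in replicate 3 (signal 71.87), and the summits of the replicates fell within 1 bp of the pooled summit. A paired heat shock unit was centred 48 bp from the summit. It is shown within 30 bases of the plus strand, chr3L:3193137-3193166.
Hsp83 promoter site: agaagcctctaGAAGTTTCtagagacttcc

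The strongest region of Hsp83 was not at a start but in an intron, 1099 bp downstream of the inner TSS, in a region 217 bp wide. It ranked 1031 in replicate 1 (signal 82.99) and 279 in replicate 3 (signal 110), with replicate summits again within 1 bp of the pooled one. Widths other than 440 bp were uncommon, at 3 of the 11 peaks here and 20.4% of all nuclear IDR peaks. The intron peak held none of the AP-1, heat shock, GAGAG, DRE or TATA words, and 30.9% of its bases were G or C, the lowest share of the 11 peaks. The 201 bases around its summit are shown for that reason, chr3L:3194215-3194415 on the plus strand.
Hsp83 intron: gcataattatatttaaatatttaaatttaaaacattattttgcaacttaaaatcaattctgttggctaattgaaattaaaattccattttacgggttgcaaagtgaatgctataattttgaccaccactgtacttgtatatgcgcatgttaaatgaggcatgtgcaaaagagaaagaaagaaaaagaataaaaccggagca

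**Figure D4:**
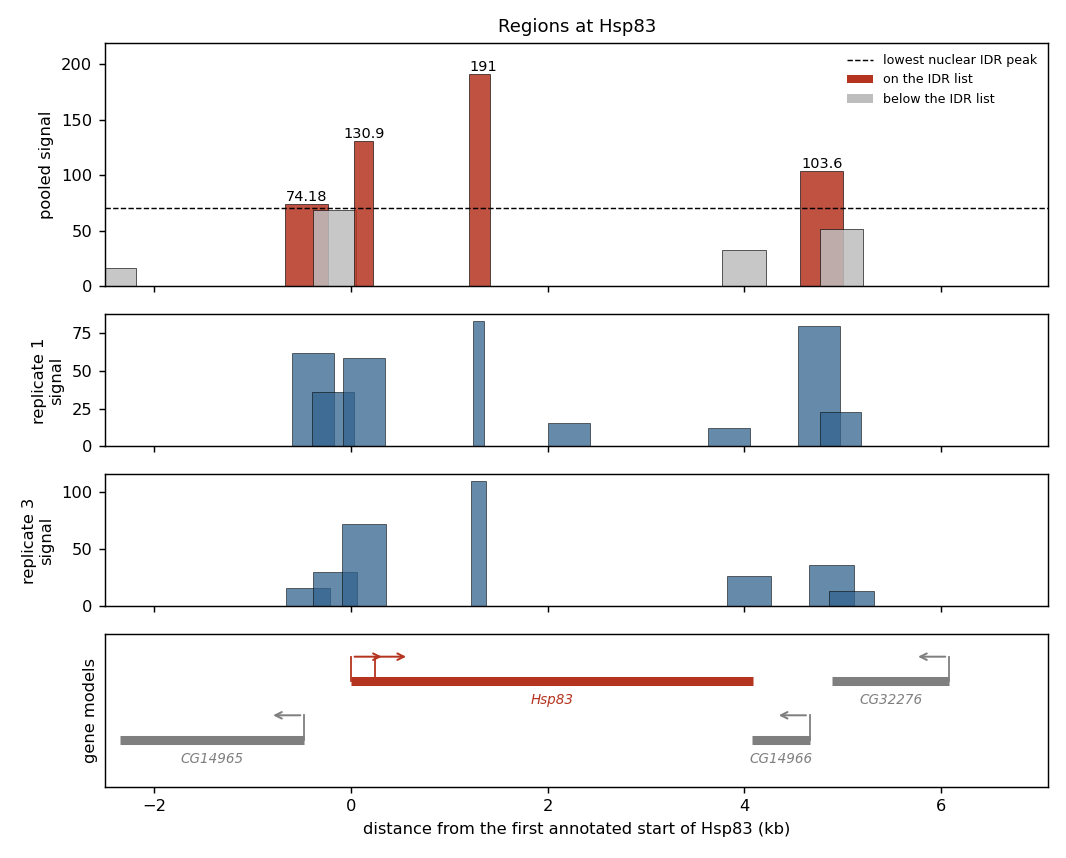
Map of the Hsp83 locus, with distance from the first annotated start in kb on the horizontal axis and the signal of each region in the pooled list, in replicate 1 and in replicate 3 on separate vertical scales. Gene models are below, with arrows at annotated starts. The narrow intron region is the tallest in all 3 lists, and the region at CG14965 is taller in replicate 1 (61.42) than its counterpart at that place in replicate 3 (16.49), on scales that are not shared.

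At the start shared by CG14965 and Hsp83 the replicates differed too. The CG14965 peak overlapped a replicate 1 region of rank 1882 whose summit lay 64 bp from the pooled one. In replicate 3 the strongest overlapping region ranked 5215 and was centred 291 bp away, towards Hsp83, and the region centred on the CG14965 start had rank 13180.

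Hsp68 (chr3R:24055080-24057310, minus strand) encodes an inducible chaperone of the Hsp70 family. It faces SMC1, a gene for a cohesin subunit, with 977 bp between the starts, and this intergenic stretch held a pair of regions of unequal strength. The IDR peak (121.9) lay 61 bp upstream of SMC1 and 916 bp upstream of Hsp68, and ranked 1073 in replicate 1 (signal 81.59) and 2624 in replicate 3 (signal 42.87). The region at Hsp68 itself, 97 bp upstream of its TSS, had a signal of 41.86 (rank 8345) and ranked 6388 in replicate 1 and 11936 in replicate 3. In the pooled list and in both replicates, the SMC1 region therefore ranked above the Hsp68 region.

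Of the 46 pooled-list regions at the heat shock protein genes, the Hsp68 promoter region was the only one that held a full heat shock element of 3 alternating units. It held 3 overlapping matches, which form 1 continuous array, and 6 paired units, some within that array. The sequences of both sides of this shared stretch are shown for comparison, the Hsp68 side as chr3R:24057311-24057507 on the minus strand and the SMC1 side as chr3R:24058126-24058286 on the plus strand, both ending at the base before the TSS.
Hsp68 promoter: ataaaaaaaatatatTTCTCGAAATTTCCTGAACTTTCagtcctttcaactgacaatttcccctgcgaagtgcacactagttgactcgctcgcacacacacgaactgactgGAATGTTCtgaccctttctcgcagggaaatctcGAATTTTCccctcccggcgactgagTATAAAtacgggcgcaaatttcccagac
SMC1 promoter: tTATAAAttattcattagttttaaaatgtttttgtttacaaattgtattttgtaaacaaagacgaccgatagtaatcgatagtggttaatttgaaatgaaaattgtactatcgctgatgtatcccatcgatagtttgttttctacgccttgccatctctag

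The array is the first run of capitals in the Hsp68 sequence. The SMC1 sequence has a TATA word at its far end and no heat shock unit.

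DnaJ-1 (chr3L:5750029-5752189, minus strand) encodes an Hsp40 co-chaperone that hands substrates to Hsp70 proteins. Its peak (84.08) had a summit 9 bp inside the TSS, in the 5′ UTR. In replicate 1 the region was centred on the same base and ranked 1770 (signal 63.4). In replicate 3 the overlapping region ranked 6238 (signal 26.9) and was centred 206 bp away, on the upstream side. The strongest replicate 3 region in the DnaJ-1 window lay elsewhere, beyond the end of the gene and 2323 bp from its TSS (rank 3644). DnaJ-1 faces Usp47, a ubiquitin protease gene, with 784 bp between the starts, and the region at the Usp47 start was among the weakest of the pooled list (16.04). The DnaJ-1 peak held both a paired heat shock unit over the start, chr3L:5752178-5752207, and a DRE upstream of it, chr3L:5752243-5752272, printed on the minus strand.
DnaJ-1 heat shock site: agaagcatccaGAAATTTCgacgtagacga
DnaJ-1 DRE site: atcggttagcaTATCGATAttgacattcgc

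Like Hsf, stv had no IDR peak. It encodes starvin, a BAG-domain co-chaperone, and has 4 annotated starts (chr3L:13477541-13483515, plus strand). Its 9 pooled-list regions had signals of 19.7 to 58.54, all under the IDR limit. The strongest lay 268 bp upstream of the first start and ranked 1941 in replicate 3 (signal 49.66) and 9595 in replicate 1 (signal 22.24). It held 18 GAGAG words, counting overlapping ones, the most of the 46 regions. The order was turned round at an inner start, where a region of pooled signal 57.11 ranked 5077 in replicate 1 and 9111 in replicate 3. That region, 90 bp upstream of the inner start, was the only one of the 46 with an exact AP-1 site, centred 47 bp from the summit. Such a site was in 8.6% of all nuclear IDR peaks and 3.57% of 440 bp windows centred on protein-coding TSSs. The share over all pooled-list regions was not computed, so nothing about these genes is concluded from the site. The 161 bases before the inner start of stv are shown because they hold the site, chr3L:13480603-13480763 on the plus strand.
stv internal promoter: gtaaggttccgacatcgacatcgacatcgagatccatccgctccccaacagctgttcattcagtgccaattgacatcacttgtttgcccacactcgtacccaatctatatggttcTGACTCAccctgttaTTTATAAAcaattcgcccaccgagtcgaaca

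Hsf is the gene for heat shock factor. It lies on 2R (18130303 to 18134634, minus strand), and its strongest pooled-list regions were centred in an intron, 815 bp and 485 bp inside the gene, with signals of 68.36 and 67.79. The strongest region at the neighbouring Pcl start, which faces Hsf across 792 bp, had a signal of 60.96 in the pooled list. The replicates differed in the Hsf intron, whose regions ranked 2135 and 2040 in replicate 3, and 11067 and 11952 in replicate 1. The Pcl region ranked 4968 in replicate 3 and 5705 in replicate 1. The Hsf intron regions thus stood above the Pcl region in the pooled list and in replicate 3, and below it in replicate 1. A region at the Hsf start itself, 113 bp inside the gene, had a pooled signal of 21.42 (rank 20806). In replicate 1 a region 40 bp upstream of the Hsf start (rank 7617) stood above the intron regions, and replicate 3 listed none centred there.

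None of the 11 IDR peaks held an exact AP-1 site, where 8.6% of all nuclear IDR peaks and 3.57% of windows of 440 bp centred on protein-coding TSSs held one. None held a heat shock element of 3 units, which was rare elsewhere too, at 0.657% of nuclear IDR peaks and 0.582% of TSS windows. Paired units were in 5 of the 11 peaks, those at Hsp26, Hsp23, DnaJ-1, the Hsp83 promoter and CG14965, beside 18% of nuclear IDR peaks and 23.1% of TSS windows. GAGAG was in 5 of the 11, beside 47.7% of nuclear IDR peaks. The DRE was in the peaks at DnaJ-1 and Fdx1, 2 of 11, beside 7.97% of nuclear IDR peaks. A match describes these letters in the window and does not show that a factor binds there.

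All 11 peaks overlapped some region in each replicate list. Those lists include background regions and the same share over all nuclear IDR peaks was not computed, so this says nothing particular about these genes. Of the 11, 8 overlapped the 3803 strongest regions of both replicates, as did 68.7% of all nuclear IDR peaks. The exceptions were the peaks at Hsp23, weaker in replicate 1, and at DnaJ-1 and CG14965, weaker in replicate 3. With the strongest 3803 regions of replicate 1 alone in place of the IDR list, 8 of the 10 genes had a region (35.4% of all protein-coding genes). With those of replicate 3 alone, all 10 had one (34.4% of all protein-coding genes), Hsf and stv included. The strongest region of each gene had a median rank at 3.22% of the pooled list. This takes the strongest of 3 to 9 regions per gene, and the same measure over all protein-coding genes was not computed. Hsp22 shares its strongest region with Hsp26, and Hsp23 shares its strongest region with Hsp27.

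**Figure D5:**
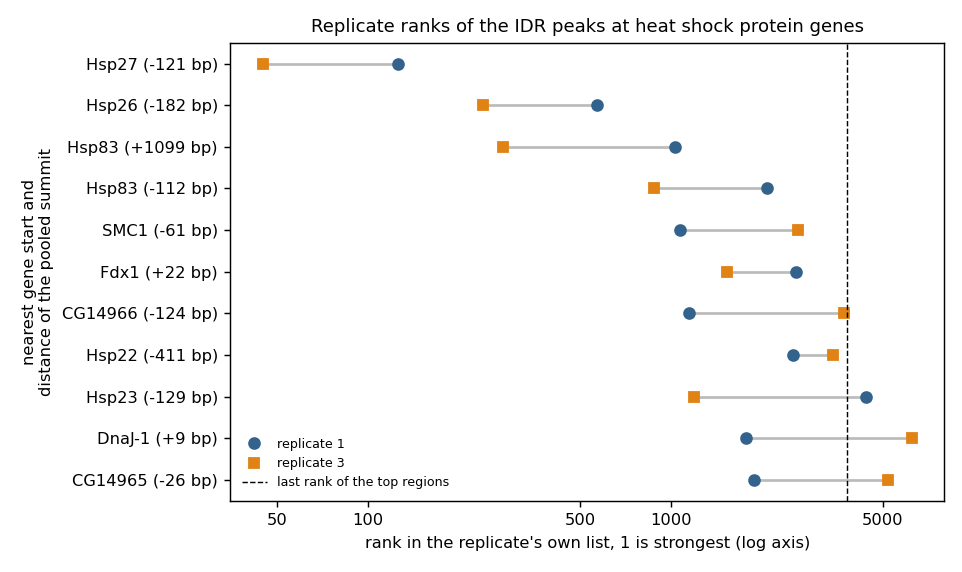
Rank of the strongest overlapping region in replicate 1 (circles) and replicate 3 (squares), on a log axis where rank 1 is strongest, for each of the 11 IDR peaks, ordered by pooled signal from top to bottom. Labels on the vertical axis name the nearest TSS and the distance of the pooled summit from it; the dashed line is rank 3803. The peaks at Hsp27, Hsp26, Hsp83, Hsp23 and Fdx1 rank higher in replicate 3 and all the others in replicate 1. To the right of the line, 3 peaks have a replicate.

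A list of 37 other chaperone genes gives the wider setting of the pathway, 36 of them protein-coding. Of the 36, 15 had an IDR peak in the gene or within 3 kb, or 41.7%. In the cluster, Hsp67Ba, CG4456 and CG4461 have only peaks already described. Of the other 33, 12 had a peak (36.4%), close to the 34.3% of all protein-coding genes. The 6 Hsp70 genes, which encode the main inducible chaperone and are nearly identical copies, are uncertain in such data. No pooled-list region lay at 5 of them, and the only peak counted for the other, Hsp70Ab (227.2), was 4459 bp from its TSS and nearest to aurA. Stip1, which links Hsp70 to Hsp90, likewise had its strongest peak (315.1) nearest to another gene, Pi3K21B. Hsc70-5, the mitochondrial Hsp70, had a peak of 199.5 centred 35 bp inside its start, and a second one of 134.5 that was nearest to CG8531. The DnaJ family gene mrj had a peak of 195 in an intron, 269 bp upstream of an inner start. Of the other DnaJ family genes named by signal, DnaJ-H had its strongest peak (166.9) nearest to Sirt1, and P58IPK had its strongest (164.9) 4247 bp from its TSS and nearest to CG8312. Each also had a weaker peak nearest to its own start. That of DnaJ-H (155.4) lay 193 bp upstream of a start, and that of P58IPK (138.9) lay 28 bp upstream. The strongest peak of Tpr2 (162.3) lay in an intron of Tpr2, 1388 bp upstream of its nearest start, and a weaker one (94.18) lay 5 bp upstream of a Tpr2 start.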

How the data were processed

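Jra ChIP-seq in whole larvae was analysed from the peak lists that the authors deposited for build dm6. The deposited text files trace each replicate list to the alignments of that replicate plus 1 further file, the pooled list to both alignments, and the IDR list to all 3. Neither aligner nor peak caller, version or IDR threshold is given in the sources used here. Controls were not analysed here. The signal of each region is the authors' deposited value, used only to rank and describe regions.

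Gene models came from Ensembl release 115 and sequence from RefSeq, both on Release 6, which is dm6. No region ended beyond its chromosome. Mitochondrial regions were set aside (24 of the IDR list). Summits were assigned to genes with Python 3.11.15 scripts, which were tested on simulated data. Overlap meant at least 1 bp. The named genes are the 10 members, genes with a TSS within 1 kb of a member summit, and other chaperone genes with the highest IDR signals. Members and lists were chosen with earlier results of these data known. Of the other chaperone symbols, 4 were matched under a newer symbol. The replicates form a single group, so no statistical test was made, and p-values are not given.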

Additional observations from a re-analysis of the deposited data

How the results depend on the processing

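Read depth is unknown and the group has 2 replicates, so a difference in rank between them cannot be given an error. Most regions of a list share a single width with the summit in the middle, and how finely a summit places a site was not measured. No paired analysis was possible because there is only 1 group. With the window set to the gene body alone, the genes with an IDR peak numbered 3 (Hsp22, Hsp83 and DnaJ-1) in place of 8, the IDR peaks 4 in place of 11 and the pooled-list regions 16 in place of 46. The narrower window leaves out every summit outside the genes. In the stronger 50% of nuclear IDR peaks, 6 of the 11 peaks remained. Counting only peaks whose nearest protein-coding TSS is a member's, an alternative chosen after seeing the data, left 7. Peaks with a heat shock element numbered 0 when 3 units were required and 5 when 2 units were enough. Peaks with an AP-1 site numbered 0 with the exact letters. They numbered 6 when 1 mismatch was allowed, beside 50.2% of all nuclear IDR peaks. Leaving out a replicate meant using the list of the other alone, with its strongest 3803 regions in place of the IDR list. Among those strongest regions, 10 to 13 lay at 8 to 10 of the genes, and 4 to 5 lay in the small Hsp cluster. The whole replicate lists held 41 to 48 regions at the genes, and the median rank was at 3.02% to 3.51%. With all other settings tried, each count stayed within 1.5 times its value in the report. A 5 kb window gave 10 genes, Hsf and stv included. The shares over all protein-coding genes were not computed for the 5 kb window or for the gene body alone. These counts therefore only show how the result depends on the window.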

Other observations

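Among other chaperone loci, the heat-inducible non-coding RNA gene lncRNA:Hsromega had 3 IDR peaks with signals of 71.67, 131.5 and 77.97, centred 32, 807 and 1010 bp downstream of annotated starts. It had 19 pooled-list regions in its window. In replicate 1 alone, a region of signal 32.84 (rank 5403) lay 863 bp upstream of stv and overlapped no pooled-list region. This region was picked after its values were seen.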
